A study of Mus musculus with 24 samples.

Results

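The mitochondrial genome of the mouse holds 37 genes, and RNA of all of them was measured here in cortex after an experimental stroke. The animals were wild-type or lacked the circular RNA ciRS-7. The members are the 37 rows whose symbol starts with mt-, out of 14769 symbols listed in at least 1 of 4 deposited tables of log2 CPM (log2 of the counts of a gene as a share of its library, scaled to a fixed library size). They fall into 13 protein-coding genes, 22 transfer RNA (tRNA) genes and 2 ribosomal RNA (rRNA) genes, and each stood in all 4 tables.

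The libraries came from cortex of male mice aged 3 to 4 months, for which the labels give the strain C57BL/6N-Cdr1asem1Nikr in wild-type and knockout animals alike. Cdr1as is the gene of ciRS-7. Every animal had a transient occlusion of the middle cerebral artery (tMCAo) for 1 h and then 1 day of reperfusion, so there is no group without surgery. There were 4 groups of 6 libraries: CL_WT and PI_WT from 6 wild-type animals (WT), and CL_KO and PI_KO from 6 knockout animals (KO). The labels give CL and PI without spelling them out, and the names are used here as given. They give each animal 1 CL and 1 PI sample. The PI against CL comparison therefore asks how the transcripts differ between the samples of the same brains, and the KO against WT comparison asks how they differ between genotypes within CL or within PI.

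Mitochondrial DNA is transcribed from both strands into long precursors that run through many genes. The tRNAs stand between the mRNAs and rRNAs like punctuation, and cutting them out at both ends releases the other transcripts. The 13 proteins are all core subunits of the respiratory chain and ATP synthase, which together make most of the ATP that neurons use. The other subunits, the polymerase and the processing enzymes are encoded in the nucleus and imported. Interrupted blood flow cuts off the oxygen that this chain consumes, which is why its transcripts are often examined after stroke.

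The following tRNA genes are shown because the results below turn on them: mt-Tl1 and mt-Tw passed a paired test between PI and CL, mt-Tg and mt-Tm belong with mt-Tl1 to the 3 tRNA genes with the highest CPM in CL_WT, and mt-Tn had the largest difference between genotypes of any tRNA. The sequences are DNA strands of the transcript sense, 5′ to 3′, from GENCODE M21 (GRCm38), with the anticodon in capitals, and all lie on chromosome M. The gene mt-Tl1 (leucine) spans bases 2676 to 2750 on the + strand, mt-Tm (methionine) 3845 to 3913 (+), mt-Tw (tryptophan) 4950 to 5016 (+), mt-Tn (asparagine) 5089 to 5159 (−) and mt-Tg (glycine) 9391 to 9458 (+).
mt-Tl1: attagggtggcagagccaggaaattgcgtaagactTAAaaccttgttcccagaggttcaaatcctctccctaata
mt-Tm: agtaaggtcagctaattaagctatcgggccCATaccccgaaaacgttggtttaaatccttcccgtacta
mt-Tw: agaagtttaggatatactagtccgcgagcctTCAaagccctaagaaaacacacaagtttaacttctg
mt-Tn: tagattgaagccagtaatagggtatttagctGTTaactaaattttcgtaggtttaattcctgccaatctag
mt-Tg: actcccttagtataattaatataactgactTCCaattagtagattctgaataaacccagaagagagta
These genes are 67 to 75 bases long, so each is shorter than most RNA-seq fragments. A read counted for such a gene may come from the cut tRNA or from an uncut precursor, and the 2 sources cannot be told apart in these tables.

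Several facts of the tables bear on all values below. In every gene and group the 2 lowest and the 2 highest of the 6 deposited values are tied at the quartiles of the group, so a lowest or highest value given here is a quartile. Overlap of groups, counts of animals and sums per library below refer to these deposited values, and the libraries' own extremes can lie further out. For the same reason the trimmed-mean test used the 4 ordered values that can be recovered. Each table was scaled on its own: the same library differed between tables by a median absolute value of 0.03 to 0.04 log2 CPM over genes, and tests stay within a table. The size of 1 read put the depth at 3.73 to 10.5 M reads per library, the lowest being CL_KO replicate 6. The lowest value of any member was 1.76 CPM, above the 0.804 CPM that 3 reads are worth in the shallowest library. Cdr1as stood at 11.35 to 11.89 log2 CPM in WT and at −2.59 or less in KO libraries, as labelled.

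The mitochondrial rows took 9.92% to 12.6% of a library. Nearly all of this came from the protein-coding genes. In the table that compares PI_WT with CL_WT, the sum of the 22 tRNA rows was between 321 and 411 CPM per library, and that of the 2 rRNA rows between 1753 and 3096 CPM. The libraries had been depleted of rRNA before library preparation, so mt-Rnr1 (12S rRNA) and mt-Rnr2 (16S rRNA) are given at the level left after depletion.

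Per kilobase of gene length, the levels in CL_WT spanned a wide range. The top was mt-Atp8 with 23980 CPM per kb, followed by mt-Atp6 with 23165 (the ATP synthase subunits 8 and 6). These 2 genes share 43 bases, chrM:7927-7969 on the + strand, and are known to be carried on 1 mRNA. The shared stretch is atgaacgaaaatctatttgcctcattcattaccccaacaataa. Next came the cytochrome c oxidase (complex IV) subunits mt-Co3 with 19048 and mt-Co2 with 17575 CPM per kb, and mt-Nd1, a subunit of NADH dehydrogenase (complex I), with 11715. The genes mt-Cytb (cytochrome b of complex III), mt-Co1, mt-Nd4 and mt-Nd4l lay between 8690 and 10529 CPM per kb. The complex I subunits mt-Nd2 and mt-Nd5 were lower, at 5442 and 2670. The genes mt-Nd4l and mt-Nd4 also overlap, by 7 bases, and share an mRNA.

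The protein-coding genes with the lowest levels were mt-Nd6, with 351 CPM per kb, and mt-Nd3, with 59.5. The gene mt-Nd6 is the only protein-coding gene on the − strand, and it overlaps mt-Nd5 by 14 bases on the opposite strand. Whether reads were counted by strand is not given in the sources used here. The rRNAs stood at 649 (mt-Rnr1) and 854 CPM per kb (mt-Rnr2), and the tRNAs at 38.6 (mt-Ty) to 728 (mt-Tl1). These levels compare genes within a group and carry no test, since genes of 1 precursor share their libraries.

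**Figure D1:**
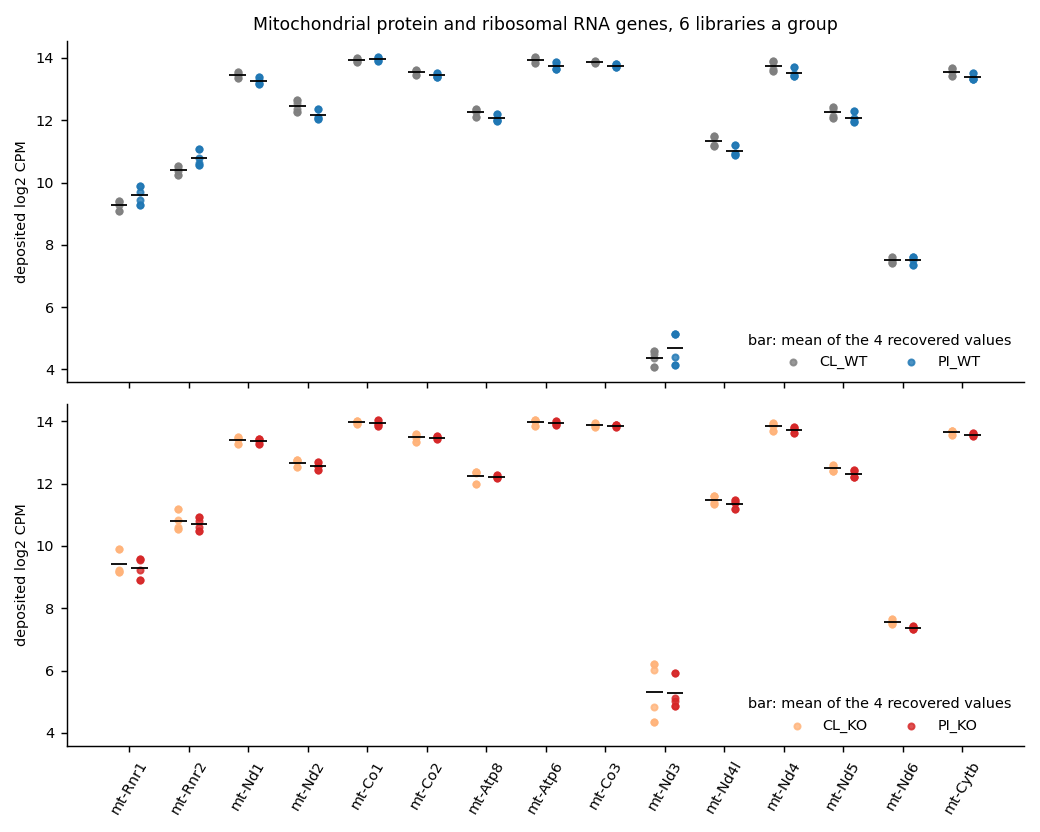
Deposited log2 CPM (vertical axis) of the 13 protein-coding and 2 rRNA genes in the WT table (top) and the KO table (bottom). Each point is a library and the bar is the mean of the 4 recovered values; mt-Nd3 lies between 4.09 and 6.21 and mt-Nd6 between 7.33 and 7.66, with every other mRNA above 10.8.

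The low value of mt-Nd3 stood beside a high value of a nuclear row. Part of mitochondrial DNA is also present in the nuclear genome, and 12 pseudogenes in the tables matched a member by sequence. Of these, 7 lie in a run on chromosome 1 (GRCm38), − strand. There Gm28438, at chr1:24612775-24613119, covers the first 345 bases of the 348 of mt-Nd3 (chrM:9459-9806) and differs from it by a single substitution, T3C, counted from 1 at the first base of mt-Nd3. That base is position 9461 of chromosome M. The first 40 bases of both are shown with the differing base in capitals. Of the 345 aligned bases, it is the only one at which the annotated sequences differ.
mt-Nd3: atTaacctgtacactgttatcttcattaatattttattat
Gm28438: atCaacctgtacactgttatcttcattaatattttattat
The stretch shown is chrM:9459-9498 on the + strand for mt-Nd3 and chr1:24613080-24613119 on the − strand for Gm28438. The annotation used here is that of C57BL/6J, whereas the animals were C57BL/6N, and the bases in their reads were not analysed here. Whether the base in capitals tells the rows apart in reads of these animals was therefore not tested.

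The 6 CL_WT libraries gave 4.09 to 4.60 log2 CPM for mt-Nd3, with a median of 4.43, and the group means of Gm28438 were 11.02 in CL_WT, 10.87 in PI_WT, 10.82 in CL_KO and 10.95 in PI_KO. The row named mt-Nd3 therefore held 0.845% to 4.39% of the CPM of the pair in any library. The counting rule for reads that match 2 places is not given in the sources used here. The value of mt-Nd3 given below is that of its own row.

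A second copy, Gm29216 (chr1:24615706-24616197), was aligned over its whole length, without gaps, to the last 492 bases of mt-Co1, bases 1054 to 1545. This gave 6 substitutions, all within the first bases of the copy, while a local alignment took in 483 bases at 99.8% identity. The group means of Gm29216 were 11.93 to 12.08 log2 CPM in the WT and KO tables, below mt-Co1, whose libraries ran from 13.85 to 14.05. The other 5 copies of this run carry no substitution over the aligned bases: Gm28661 (mt-Co2), Gm10925 (mt-Atp6), Gm28437 (mt-Co3), Gm28439 (mt-Nd4) and Gm10222 (mt-Nd4l). Their group means in the same tables lay between 0.94 and 5.97 log2 CPM, far below their members. For these pairs the annotated sequences hold no letter within the aligned bases that would tell the reads apart.

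**Figure D2:**
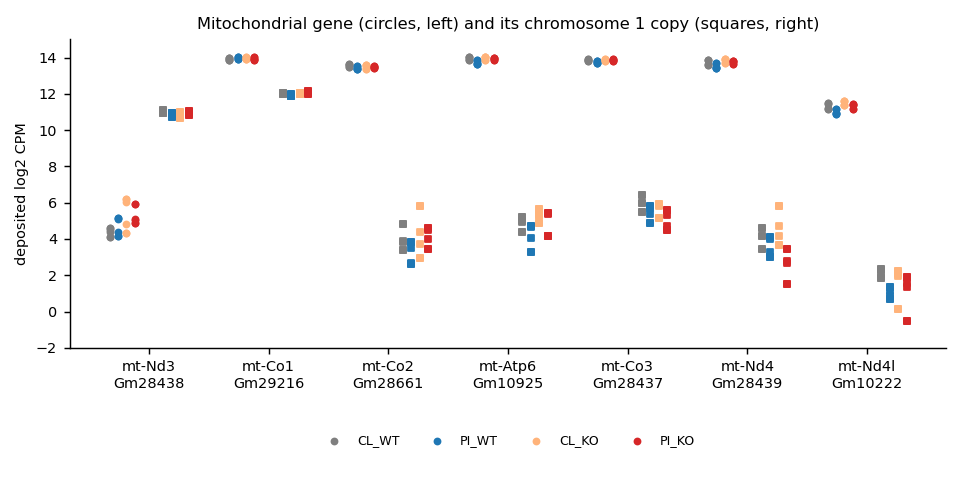
Deposited log2 CPM (vertical axis) of 7 mitochondrial genes (circles) and of their copies on chromosome 1 (squares) in all 24 libraries, coloured by group. The order is turned in the mt-Nd3 pair, where mt-Nd3 holds at most 4.39% of the CPM of the pair.

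In wild-type animals the mRNAs were mostly somewhat lower in PI than in CL, and both rRNAs were higher. Of the 13 protein-coding genes 10 were lower in PI, with a median difference of −0.17 log2 CPM, beside 0.01 over all genes of the table. The rRNAs had a median difference of 0.35, and 16 of 22 tRNAs were higher with a median of 0.07. None of the 37 members passed the trimmed-mean test at an adjusted p of 0.05, where 10.6% of all 14489 genes did. At an unadjusted p of 0.05 there were 5 members, 1 higher and 4 lower, against a background of 23.9%. Limma on the deposited values, whose error is too small because of the ties, called 13 members, against 44.6% of all genes. Fewer cells of a type and less RNA per cell cannot be told apart in these bulk samples.

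Since each animal gave both samples, the paired form of the same test, with the animal as the pair, stands beside this result. It called 8 of 37 members, 3 higher and 5 lower in PI, against 15.7% of all genes. The 3 higher ones were mt-Rnr1, mt-Rnr2 and mt-Tw, and the 5 lower ones were mt-Nd2, mt-Nd4, mt-Nd4l, mt-Atp8 and mt-Tl1. The unpaired trimmed-mean test made none of these calls, while limma on the deposited values, with its too small error, made all 8.

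Among the complex I mRNAs, mt-Nd4l had the largest difference. Its values ran from 11.17 to 11.50 with a median of 11.33 log2 CPM in CL_WT, and from 10.88 to 11.19 with a median of 10.94 in PI_WT. The ranges overlapped slightly, and PI was below CL in 6 of 6 animals. It fell by 0.33 ± 0.07 (SE of the paired test, n = 6 animals; paired trimmed-mean test with limma's moderation, adjusted p = 0.000192; unpaired adjusted p = 0.12). For mt-Nd2, CL_WT ran from 12.27 to 12.65 (median 12.47) and PI_WT from 12.03 to 12.36 (median 12.08). The gene fell by 0.30 ± 0.07 in the paired test (adjusted p = 0.00178; unpaired 0.202), again in 6 of 6 animals.

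The gene mt-Nd4, which shares an mRNA with mt-Nd4l, ran from 13.57 to 13.88 in CL_WT and from 13.42 to 13.70 in PI_WT. It fell by 0.21 ± 0.08 in the paired test (adjusted p = 0.0478; unpaired 0.329). The complex I subunits mt-Nd1 and mt-Nd5 differed by −0.18 and −0.17 and were lower in 6 of 6 animals, but passed neither test (paired adjusted p = 0.0788 and 0.0751). The difference was 0.00 for mt-Nd6, which turned to −0.03 after centring (subtracting the group's median over genes). For the mt-Nd3 row it was 0.31 ± 0.14 in the paired test (adjusted p = 0.119, unpaired 0.562). Both genes passed neither test.

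For the ATP synthase pair, mt-Atp8 ran from 12.11 to 12.36 in CL_WT and from 11.97 to 12.21 in PI_WT, and fell by 0.19 ± 0.07 in the paired test (adjusted p = 0.0397; unpaired 0.288). Its partner mt-Atp6 differed by −0.21 and just missed the threshold (paired adjusted p = 0.0558; unpaired 0.2). Both were lower in 6 of 6 animals. The complex III gene mt-Cytb differed by −0.17 (paired adjusted p = 0.118). The complex IV genes stood closer to CL: mt-Co2 at −0.12, mt-Co3 at −0.11 and mt-Co1 at 0.04, none past either test.

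The rRNAs went the other way. For mt-Rnr2, CL_WT ran from 10.24 to 10.54 (median 10.41) and PI_WT from 10.57 to 11.06 (median 10.70), and the deposited ranges did not overlap. It rose by 0.38 ± 0.08 in the paired test (adjusted p = 0.0007; unpaired 0.148), in 6 of 6 animals. For mt-Rnr1, CL_WT ran from 9.08 to 9.42 and PI_WT from 9.29 to 9.90, with overlap. It rose by 0.31 ± 0.10 in the paired test (adjusted p = 0.0169; unpaired 0.316), in 5 of 6 animals. Small nuclear RNAs, another class of structured RNA, stood higher in the same table with a median of 0.81. Of these, 10 of 21 were called, where 10.6% of all genes were. Lower medians were found for small nucleolar RNAs (0.20, 1 of 34 called), miRNA genes (0.20, 0 of 14) and miscellaneous RNAs (0.12, 1 of 23). The part of these classes in the rRNA result was not tested.

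Of the tRNAs, mt-Tl1 ran from 5.73 to 5.81 in CL_WT and from 5.34 to 5.68 in PI_WT, without overlap of the deposited ranges. It fell by 0.26 ± 0.08 in the paired test (adjusted p = 0.0262; unpaired 0.139). The gene mt-Tw had a wide CL_WT range, from 3.31 to 4.42, beside 3.93 to 4.59 in PI_WT. It rose by 0.59 ± 0.18 in the paired test (adjusted p = 0.0149; unpaired 0.361), in 5 of 6 animals. The other 2 tRNAs with the highest CPM in CL_WT, mt-Tg and mt-Tm, differed by 0.03 (−0.01 with centring) and −0.11 and passed neither test, nor did any of the other 18, which lay between −0.10 and 0.38.

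**Figure D3:**
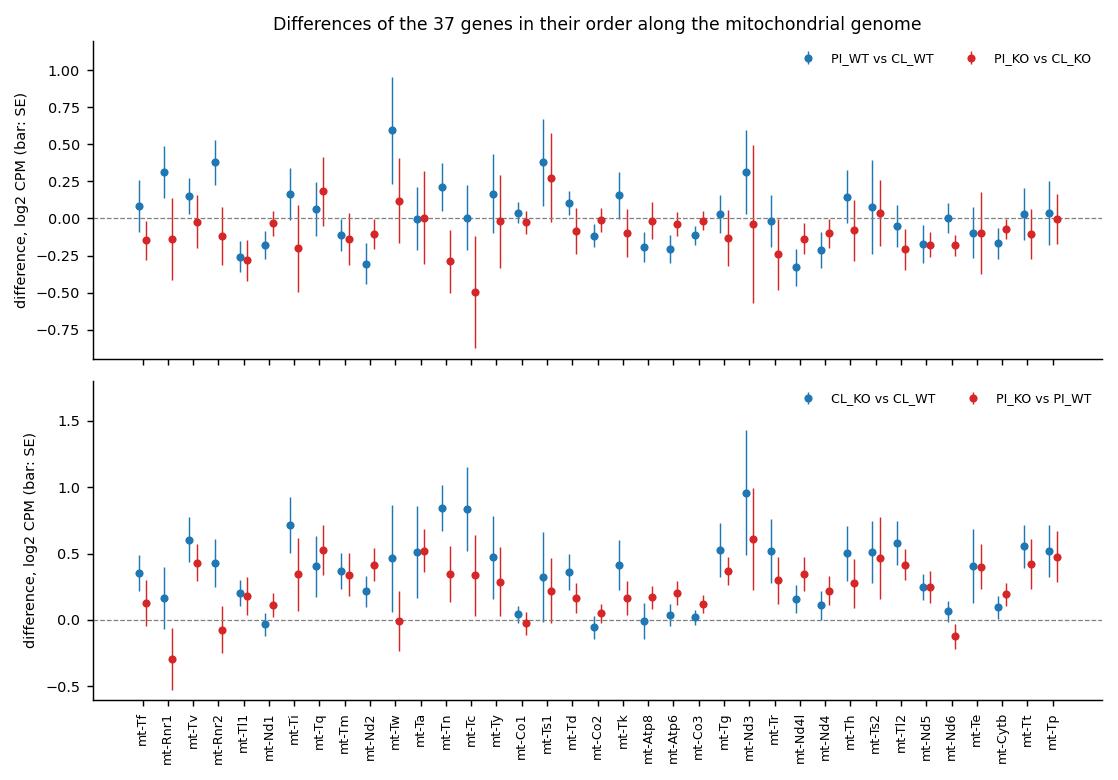
Difference in log2 CPM with its SE from the unpaired test (vertical axis) for the 37 genes in their order along the mitochondrial genome, for PI against CL (top) and KO against WT (bottom). In the lower panel the tRNAs of the CL comparison all lie above 0, as do most mRNAs, from −0.06 (mt-Co2) to 0.25 (mt-Nd5) and, for the mt-Nd3 row, 0.96.

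In knockout animals the mRNAs of PI and CL lay close together. All 13 protein-coding genes were lower in PI_KO than in CL_KO, from −0.18 to −0.01 with a median of −0.04. The 2 rRNAs differed by −0.14 (mt-Rnr1) and −0.12 (mt-Rnr2), and 17 of 22 tRNAs were lower with a median of −0.10. The trimmed-mean test called 0 of 37 members, where 10% of the 14338 genes passed. At an unadjusted p of 0.05 there was 1 member, mt-Nd6, against 24.9% of all genes. Limma on the deposited values called 3 against 46.5%, and 4 against 44% without the shallowest library, CL_KO replicate 6. Without it, the mt-Nd3 difference turned to 0.14. This left out only its column, and the quartiles of the CL_KO group were still set with it.

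The gene mt-Nd6 ran from 7.49 to 7.66 log2 CPM in CL_KO and from 7.33 to 7.44 in PI_KO, with no overlap of the deposited ranges and PI lower in 6 of 6 animals. The difference of −0.18 ± 0.07 (SE of the unpaired test) passed neither the unpaired test (adjusted p = 0.124) nor the paired one (0.0518). The paired test called 1 member, mt-Tl1, against 15% of all genes. It ran from 5.79 to 6.12 in CL_KO and from 5.51 to 5.89 in PI_KO. It fell by 0.28 ± 0.09 in the paired test (adjusted p = 0.0219, unpaired 0.221), in 6 of 6 animals. This leucine tRNA is the gene that follows mt-Rnr2 on the genome, and it was called lower in the paired test in both genotypes.

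The other mRNAs passed neither test in knockout animals. The gene mt-Nd2 differed by −0.10 (paired adjusted p = 0.379), mt-Nd4l by −0.14 (0.225) and mt-Nd4 by −0.10 (0.416). The largest of the group beside mt-Nd6 was mt-Nd5, at −0.18 (0.086). The genes mt-Nd1, mt-Nd3, mt-Atp6, mt-Atp8, mt-Co1, mt-Co2 and mt-Co3 lay between −0.04 and −0.01, and mt-Cytb at −0.07.

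Whether the PI against CL difference itself differed between genotypes was tested as the difference of the 2 differences. No member passed, in the unpaired or the paired form, where 0% and 0.00704% of 14211 genes did. At an unadjusted p of 0.05 in the unpaired form there were 0 members against 4.55% of all genes, and limma called 2 (mt-Rnr2 and mt-Tn) against 13.7%. In the paired trimmed-mean test mt-Rnr2 (unadjusted p = 0.0389), mt-Tn (0.0431) and mt-Nd6 (0.0448) were below that p. The share of all genes below it in the paired form was not counted. The medians were 0.11 for the mRNAs, −0.17 for the tRNAs and −0.47 for the rRNAs, and the mt-Rnr2 value was −0.50 ± 0.28 (adjusted p = 0.992). The differing counts of calls in wild-type and knockout animals are therefore not shown to be a difference between genotypes.

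**Figure D4:**
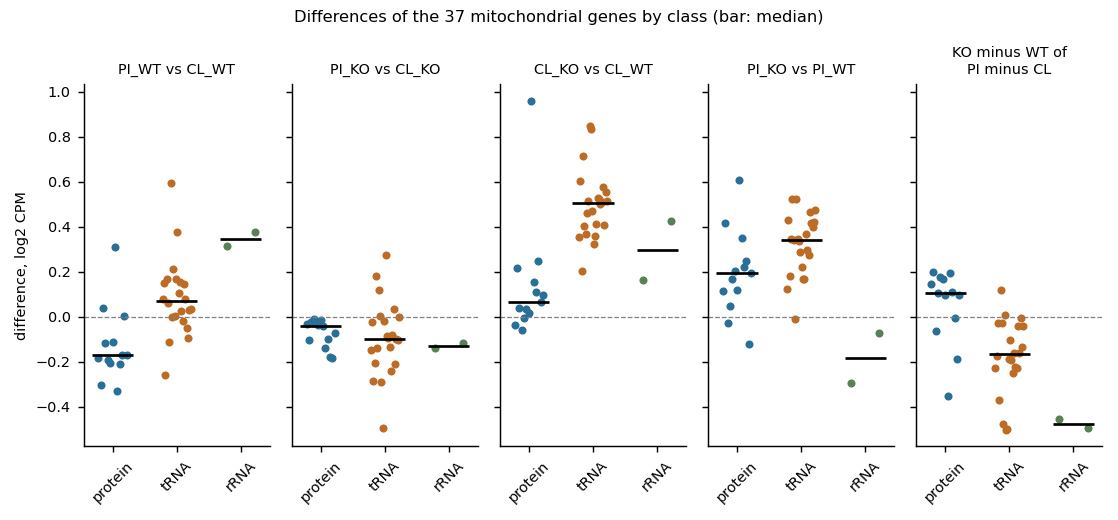
Difference in log2 CPM (vertical axis) for each member by class, in the 4 comparisons and in the difference of the PI against CL differences. Points are genes and bars are class medians; in CL_KO against CL_WT all 22 tRNAs lie above 0 with a median of 0.51.

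Between genotypes in CL cortex, the tRNAs were the class with the largest median difference. All 22 were higher in CL_KO than in CL_WT, by 0.21 to 0.85 log2 CPM with a median of 0.51, beside a median of −0.00 over all genes. The 13 mRNAs had a median of 0.07 and the rRNAs 0.30. No member passed the test at an adjusted p of 0.05, where 0.0279% of the 14323 genes did. At an unadjusted p of 0.05 there were 17 members, all higher: 15 tRNAs, mt-Nd5 and mt-Rnr2. In all genes 5.73% were below that p and 3.16% were below it and higher. The 22 genes share precursors and libraries and are not 22 independent observations.

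Of the 22 tRNAs, 10 had all 6 deposited KO values above all 6 WT values, where 6.7% of all genes did. The asparagine tRNA mt-Tn, chosen after its values were seen, ran from 3.60 to 3.77 log2 CPM in CL_WT (median 3.74) and from 4.23 to 4.75 in CL_KO (median 4.68). The difference was 0.85 ± 0.17 and the adjusted p 0.296. The 3 tRNAs with the highest CPM in CL_WT gave 5.70 to 5.77 in CL_WT and 5.76 to 6.10 in CL_KO for mt-Tl1, and 5.26 to 5.57 against 5.63 to 5.99 for mt-Tm. For mt-Tg they were 5.27 to 5.67 and 5.64 to 6.26. Their differences were 0.21, 0.37 and 0.53 with adjusted p of 0.878, 0.807 and 0.824.

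The difference was seen in genes of both strands. The 14 on the + strand had a median of 0.51 and the 8 on the − strand 0.49. Summed over the 22 genes, the CL_WT libraries held 313 to 391 CPM with a median of 361, and the CL_KO libraries 391 to 567 with a median of 517. The CL_KO replicates 1 and 3 stood level with the highest CL_WT library, and the other 4 lay at 501 CPM or more.

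Some sets of other short RNAs also stood higher in CL_KO and some did not, in sets chosen after the tRNA values were seen. The small nucleolar RNAs had a median of 0.44 over 36 genes in the same comparison, and 14 of them were higher with an unadjusted p under 0.05. The small nuclear RNAs had a median of 0.70 over 18 genes and the miRNA genes 0.24 over 13. The class of miscellaneous RNAs was at −0.05 over 21 genes, with 9 higher and 12 lower. Genes whose longest transcript is 100 to 200 bases had a median of 0.44 and those under 100 bases 0.31, while genes of 200 to 400 bases had 0.01 and those of 1000 bases or more −0.00. The summed cortical neuron markers were also higher, at 426 to 451 CPM in CL_KO and 385 to 422 in CL_WT. The part of these in the tRNA result was not tested. The shallowest library, CL_KO replicate 6, is in this comparison. In limma on the deposited values, whose SE is too small because of the ties, 19 members were called against 16.1% of all genes. With the column of that library left out it called 18, of which 15 were tRNAs, against 12.4%, and the tRNA median was 0.43. The quartiles to which the other CL_KO values are tied were still set with that library, so its influence is not fully removed.

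**Figure D5:**
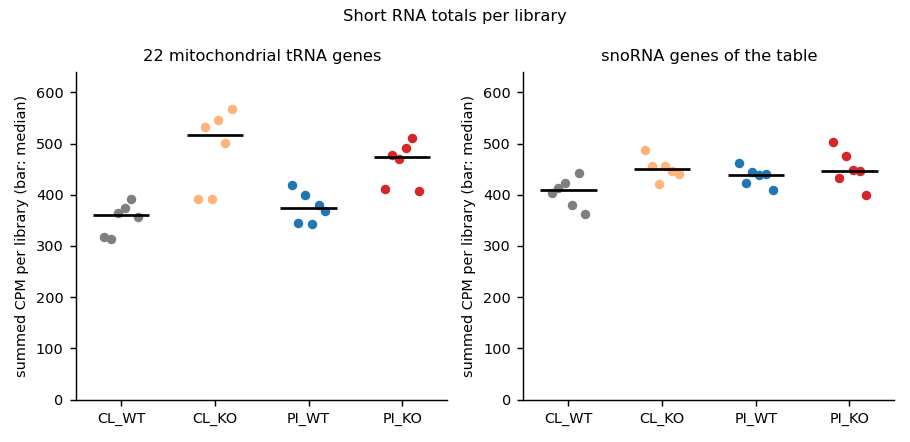
Summed CPM per library (vertical axis, from 0) of the 22 mitochondrial tRNA genes (left) and of the small nucleolar RNA genes (right), with the median as a bar. Values come from the CL table and the PI table, each scaled on its own; the CL_KO tRNA totals run from 391 to 567 and the CL_WT totals from 313 to 391.

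Among the mRNAs of CL cortex, mt-Nd5 ran from 12.05 to 12.39 in WT and from 12.38 to 12.56 in KO, with a difference of 0.25 ± 0.10 (adjusted p = 0.825). The rRNA mt-Rnr2 ran from 10.21 to 10.51 in WT and from 10.52 to 11.15 in KO, without overlap of the deposited ranges (0.43 ± 0.18, adjusted p = 0.833). The gene mt-Rnr1 differed by 0.17 ± 0.23. The mt-Nd3 row had the largest difference of any member, 0.96 ± 0.47 (adjusted p = 0.878), with KO values from 4.32 to 6.18, while its copy Gm28438 differed by −0.19. The remaining mRNAs lay between −0.06 (mt-Co2) and 0.22 (mt-Nd2): mt-Nd4l at 0.16, mt-Nd4 at 0.11, mt-Cytb at 0.10, mt-Nd6 at 0.07, mt-Co1 and mt-Atp6 at 0.04, mt-Co3 at 0.02, mt-Atp8 at −0.01 (0.04 without CL_KO replicate 6) and mt-Nd1 at −0.03.

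In PI cortex, mRNAs and tRNAs were both higher in knockout animals. There 11 of 13 mRNAs were higher with a median of 0.19, and 21 of 22 tRNAs with a median of 0.34. The rRNAs stood at −0.29 (mt-Rnr1) and −0.07 (mt-Rnr2). No member passed the test at an adjusted p of 0.05, where 0.0208% of the 14452 genes did. At an unadjusted p of 0.05 there were 12 members, 4 mRNAs and 8 tRNAs, all higher. The background was 5.75% of all genes, and 2.8% for higher ones. In 12 members all 6 KO values lay above all 6 WT values, against 6.94% of genes. Limma on the deposited values called 18 members against 16.5% of all genes.

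The mRNA with the smallest p was mt-Nd2, which ran from 12.06 to 12.39 in PI_WT (median 12.11) and from 12.48 to 12.72 in PI_KO (median 12.61), without overlap of the deposited ranges. The difference was 0.42 ± 0.13 (adjusted p = 0.826). The gene mt-Nd4l ran from 10.91 to 11.22 in PI_WT and from 11.21 to 11.50 in PI_KO (0.35 ± 0.13, adjusted p = 0.854). The differences of mt-Cytb and mt-Atp6 were 0.19 and 0.20, those of mt-Nd5, mt-Nd4, mt-Atp8, mt-Co3 and mt-Nd1 0.25, 0.22, 0.17, 0.12 and 0.11. The genes mt-Co2 (0.05), mt-Co1 (−0.03) and mt-Nd6 (−0.12) stood nearest to or below 0, and the mt-Nd3 row was at 0.61 ± 0.38.

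Of the same 3 tRNAs in PI cortex, where mt-Td stood above mt-Tl1 (46.6 and 45.7 CPM in PI_WT), mt-Tg ran from 5.46 to 5.70 in WT and from 5.83 to 6.09 in KO, without overlap of the deposited ranges (0.37 ± 0.11, adjusted p = 0.768). The genes mt-Tm and mt-Tl1 differed by 0.34 and 0.18 with overlap. The tRNA totals were 342 to 419 CPM in PI_WT and 407 to 512 in PI_KO, and overlapped. The other short RNAs differed by class here. The miRNA genes had a median of 0.33, with 10 of 13 higher and 5 at an unadjusted p under 0.05. The small nucleolar RNAs had a median of 0.07, the miscellaneous RNAs 0.09, the small nuclear RNAs −0.18, and genes of 100 to 200 bases 0.04, while those under 100 bases had 0.31 over 17 genes. The summed nuclear RNA markers were lower, at 18573 to 20529 CPM in PI_KO and 20898 to 24782 in PI_WT, and their part in the result was not tested. The PI and CL comparisons of genotype come from the same 12 animals and are not independent.

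Since the wild-type PI libraries enter both comparisons in which the mRNAs differed most, the values stand side by side without a further test. The gene mt-Nd4l was −0.33 in PI_WT against CL_WT and 0.35 in PI_KO against PI_WT, and mt-Nd2 −0.30 and 0.42. The PI_WT libraries are the shared term. The share of all mitochondrial rows in a library had a median of 10.3% in PI_WT and 11.8% in CL_WT in 1 table, and 11.7% in PI_KO and 12.3% in CL_KO in the other.

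The nuclear genes of the same machinery were followed by lists. Of 77 nuclear-encoded subunits of the respiratory chain and ATP synthase, 56 were lower in PI_WT than in CL_WT with a median of −0.04, and 2 were called, where 10.6% of all genes were. Both were lower: Cox8a at −0.25 (adjusted p = 0.0105) and Cox6c at −0.24 (0.0425), both small subunits of complex IV. In knockout animals 60 of 77 were higher in PI with a median of 0.05, and 1 was called against 10% of all genes, the complex I subunit Ndufc2 at 0.23 (adjusted p = 0.031). Between genotypes in PI, 66 of 77 were higher in KO with a median of 0.13, 23 of them at an unadjusted p under 0.05, where 2.8% of all genes were higher at that p, and none was called. In CL the median was 0.01 and none was called.

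Of 39 genes that copy, transcribe or process mitochondrial DNA and RNA, 1 was called over the 4 comparisons. This was Hsd17b10, a subunit of the enzyme that cuts the 5′ ends of mitochondrial tRNAs. It rose by 0.49 ± 0.14 in PI_KO against CL_KO (adjusted p = 0.0466), where 10% of all genes were called. The paired test called 3 of the 39 there, against 15% of all genes. These were Hsd17b10 (0.0126), the mitochondrial topoisomerase Top1mt at 0.60 (0.0299, unpaired 0.0612) and Pde12, which removes poly(A), at 0.35 (0.0111, unpaired 0.0891). In wild-type animals the paired test called 1 of the 39, Hsd17b10, against 15.7% of all genes. Hsd17b10 differed there by 0.38 ± 0.13 (adjusted p = 0.0741, paired 0.0386). Next by p came Rexo2 (0.23), a nuclease that degrades short RNAs, and Mterf1a (0.31).

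Between genotypes in CL, the smallest p of this list belonged to Trnt1 (−0.22), which adds the CCA end to tRNAs, Polg (0.22), the mitochondrial DNA polymerase, and Pde12 (−0.20), all with an adjusted p of 0.642 or more. In PI they were Top1mt (0.29), Prorp (−0.23), the nuclease that cuts tRNA 5′ ends, and Ptcd2 (0.14), with 0.854 or more. None of the 12 regulators of mitochondrial biogenesis or of the 29 genes that charge or modify mitochondrial tRNAs was called by the unpaired test. The paired test called 1 of the 12 in wild-type animals, against 15.7% of all genes. This was Gabpb1 (0.31, adjusted p = 0.0338), a subunit of a transcription factor of nuclear respiratory genes. Of the 29, the paired test called 1 in knockout animals, against 15% of all genes. This was Rars2 (0.34, 0.042), which charges the arginine tRNA.

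In PI_WT against CL_WT the unpaired test called 1 of 10 listed copies, where 10.6% of all genes were called. This was Gm10222 on chromosome 1, which is identical to mt-Nd4l over its 294 bases. It fell by 1.12 ± 0.26 (adjusted p = 0.0165), from a mean of 2.13 to 1.01 log2 CPM. The annotated sequences cannot tell its reads from those of mt-Nd4l, so its fall is no separate evidence on mt-Nd4l. In the paired test 5 of 10 copies listed in that table were called, against 15.7% of all genes, all lower: Gm10222, Gm28661, Gm10925, Gm28437 and Gm28439. In knockout animals it called 2 of 12, against 15% of all genes, Gm28439 at −2.08 and Gm28437 at −0.62. Copies on other chromosomes stood at low to moderate levels. On chromosome 2, Gm13340 (mt-Co1) and Gm13341 (mt-Co2) had group means of 5.11 to 5.53 log2 CPM. On chromosome 4, Gm11410 (mt-Cytb) and Gm11407 (mt-Nd5), and on chromosome 2 Gm13339 (mt-Nd2), stood between −0.48 and 1.35. None of these was called.

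Markers of the cells in the sample were read as lists. The cortical neuron list was listed in full (5 of 5 genes, 4.50 to 7.26 log2 CPM). Its summed level was 395 to 431 CPM in CL_WT and 377 to 394 in PI_WT, and 434 to 459 in CL_KO and 376 to 402 in PI_KO. The summed general neuron list was lower in PI, at 4854 to 5449 CPM against 5669 to 6178 in wild-type animals and 4677 to 5247 against 5725 to 5961 in knockout animals. Its members did not go one way: in wild-type animals 3 of 6 were higher and 3 lower, from −0.30 (Snap25) to 0.28 (Gad2). There 2 were called lower and 0 higher, where 10.6% of all genes were called. In knockout animals Gad2 was called higher (0.38) while Snap25 and Syt1 were called lower, where 10% of all genes were called. Between genotypes in CL the neuron sums overlapped, at 5542 to 6033 CPM in WT and 5622 to 5848 in KO. Neutrophil markers were not listed in 3 of the tables, and 2 of 3 were listed in the PI table, with sums of 3.39 to 9.32 CPM in PI_KO and 2.20 to 4.12 in PI_WT. Of the choroid plexus markers 1 of 4 was listed, at 0.87 to 1.62 log2 CPM.

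Other marker lists also differed between PI and CL. Of the striatal markers 2 of 4 were listed, with sums of 59.3 to 79.9 CPM in PI_WT against 44.4 to 51.7 in CL_WT, and 53.9 to 77.02 in PI_KO against 41.6 to 52.2 in CL_KO. Of these, Ppp1r1b was called higher in wild-type animals (0.63, adjusted p = 0.0159). The oligodendrocyte sums were 1121 to 1607 CPM in PI_WT against 1638 to 1776 in CL_WT, with a median difference of −0.36 and none called, and overlapped in knockout animals. The astrocyte sums were lower in PI, at 6050 to 6443 against 6828 to 7228 CPM in wild-type animals. In knockout animals they were 5933 to 6546 against 6833 to 7323 CPM. The astrocyte genes did not go one way: 3 of 5 were higher and 2 lower in each genotype, with medians of 0.27 and 0.15. In wild-type animals 2 were called higher and 2 lower, where 10.6% of all genes were called. In knockout animals 2 were called higher and 1 lower, where 10% were. Gfap rose by 1.88 and 2.19. The red blood cell genes, 4 of 5 listed, had a median of 0.72 in wild-type animals with none called. The sums of microglial markers overlapped in both genotypes. In each genotype 2 of the 4 were higher and 2 lower in PI, with 1 called higher and 1 called lower. Of all genes 10.6% were called in wild-type and 10% in knockout animals. The endothelial sums overlapped in wild-type animals and were 73.3 to 80.1 CPM in PI_KO against 80.4 to 91.4 in CL_KO. Of the 4 endothelial genes, 3 were higher in PI in each genotype, with medians of 0.35 (wild-type) and 0.03 (knockout). In knockout animals 1 of the 4 was called, lower, against 10% of all genes, and in wild-type animals none was. The sums of nuclear RNA markers overlapped in wild-type animals, where 1 of 5 was called, higher. In knockout animals they were 18109 to 20067 CPM in PI_KO against 20110 to 23461 in CL_KO. There 1 of the 5 was higher and 4 were lower, with 1 called higher and 2 lower, against 10% of all genes. The part of cell makeup and of nuclear RNA in the mitochondrial values was not tested.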

How the data were processed

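RNA was extracted from cortex with TRIzol, treated with TURBO DNase, depleted of ribosomal RNA (RiboCop V1.2, 600 ng) and made into CORALL total RNA libraries, per the labels' protocols. The authors deposited 4 tables of log2 CPM, 1 for each pair of groups, with 12 libraries each. The submitters' processing notes name the build mm10. The aligner, the annotation, the counting rule and its use of strand are not given in the sources used here. All columns were mapped to samples, and 0 were left unused. The depth of a library was estimated from the step between low CPM values. It was the smallest depth among those that brought these values nearest to whole numbers of reads. Within 0.03 reads, 33.1% to 89.3% of these values came out whole, so no count test was run. A depth set in advance would give 6% by chance. That is no background for these shares, since the depth was chosen on the same values.

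The deposited values are drawn in to the quartiles of each group of 6. From them the 4 inner ordered values were recovered, and Yuen's trimmed-mean test was run on these 4 values per group, two-sided, with limma's moderation of the variance with a trend (limma 3.58.1, R 4.3.3) and Benjamini-Hochberg adjustment over all genes of the table. An SE is that of the moderated test. The pairs come from the labels, which give the same animal number to 1 CL and 1 PI sample. As a check, deviations from the group means were correlated within animals, which gave r from −0.05 to 0.23 in wild-type and −0.02 to 0.23 in knockout animals. The scripts were tested on simulated data.

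Gene positions, lengths and sequences come from GENCODE M21, and all 37 members matched by symbol. Nuclear copies were found with blastn 2.17.0 (word size 28) and named where they stand in a table. The members and lists were chosen with earlier results of these data known. Named with values were all mRNAs and rRNAs, the tRNAs called by a test, the 3 tRNAs with the highest CPM in CL_WT, and of the nuclear lists the called genes or those with the smallest p.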

Additional observations from a re-analysis of the deposited data

How the results depend on the processing

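The count of 0 called members in each of the 5 comparisons was the same without the trend in the prior variance, with only genes at 1 log2 CPM or more, on log2(CPM + 1) and with each group centred on its median gene. Limma on the deposited values, whose ties make the error too small, called 13 members in PI_WT against CL_WT (44.6% of all genes). It called 3 in PI_KO against CL_KO (46.5%), 18 in PI_KO against PI_WT (16.5%) and 19 in CL_KO against CL_WT (16.1%). In the difference of differences it called 2 (13.7%). With the replicate block, that is with the animal as the pair, the trimmed-mean test called 8 members in wild-type animals (15.7% of all genes). It called 1 in knockout animals (15%) and 0 in the difference of differences (0.00704%). Limma with the block called 16, 6 and 3. Its share over all genes was not counted, so these 3 counts have no background beside them. The block could not be used between genotypes, which share no animal. Without CL_KO replicate 6, an alternative added after seeing the data, limma called 18 members in CL_KO against CL_WT (12.4% of all genes). In PI_KO against CL_KO it then called 4 (44%). Only the column of that library was left out. The quartiles to which the other CL_KO values are tied were still set with it, so its influence is not fully removed.

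Some single members changed sign. Centring did so in wild-type animals for mt-Tc (−0.028), mt-Tg (−0.0060), mt-Nd6 (−0.030) and mt-Tt (−0.0027) and in knockout animals for mt-Ta (−0.027). On log2(CPM + 1), mt-Ta turned to −0.0033 in knockout animals and to −0.00042 in the difference of differences. Without CL_KO replicate 6, mt-Tv (0.034), mt-Ty (0.076), mt-Nd3 (0.14), mt-Te (0.0050) and mt-Tp (0.045) turned in PI_KO against CL_KO, and mt-Atp8 (0.043) in CL_KO against CL_WT. The cause was not tested. The median differences of the mRNAs kept their sign under centring and on log2(CPM + 1).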
